A study of Homo sapiens with 6 samples.

Results

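Chromosome ends of HCT-116 cells, a human colon cancer cell line, were examined for binding of CTCF. The members are all CTCF peaks on chromosomes 1 to 22 that reach within 500 kb of position 0 or of the end of an hg19 chromosome. They were 517 of the 57935 peaks of clone D3, 369 of the 39434 peaks of clone E4 and 377 of the 38645 peaks of wild-type cells (WT), or 1263 of 136014 peaks in all. After overlapping peaks of the 3 lists were merged, they formed 548 of the 58351 regions of chromosomes 1 to 22.

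The series examined CTCF by chromatin immunoprecipitation and sequencing in untreated, formaldehyde-fixed cells, and its title concerns a distal CTCF site in the control of the oncogene MYC. WT is the wild-type line, and D3 and E4 are clones whose genotype is labelled only as a CTCF mutation. Each clone is a single line. With 1 CTCF library per population, differences between them lack a replicate check and no p-value is given. A no-antibody library of each population was not analysed here, and read depth is unknown. The lists differ in length, and the fold enrichment of a peak over local background is the authors' value, which depends on its own library. Fold was therefore compared only as a percentile rank within its own list, where 100 is the highest.

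CTCF is a zinc-finger protein that binds insulators and, with cohesin, anchors chromatin loops. The stretch just inside the telomere repeats, the subtelomere, is built of segments shared between chromosome ends, followed by gene-rich unique sequence. CTCF and cohesin are known to bind there next to the start of the telomeric repeat RNA TERRA and to help keep chromosome ends stable. In hg19 the outermost bases are unknown at many chromosome ends, and the outer parts of the acrocentric short arms are unplaced, so no read can map there. How reads that match several ends were treated is not given in the sources used here.

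Of 44 chromosome ends, 39 held at least 1 peak. The 5 without any were 13p, 14p, 15p, 21p and 22p, the acrocentric short arms, where the first peak of any list lay 9.48 to 20.1 Mb from the start. All peaks of the 22 chromosomes lay inside the hg19 lengths, with 10.4 to 297.9 kb between the last peak and the end. Lengths below cover the 39 ends with peaks, 19.5 Mb in all, with unknown bases included.

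Regions over gene starts can be shown with the promoter sequence of RefSeq. Of 93 genes in 8 lists of genes near chromosome ends, 75 had a promoter in RefSeq (GRCh38.p14, 250 bases before to 50 bases after the start). For 11 genes a CTCF region lay within 250 bp of the start, and for 5 of these it was called in all 3 lists. The 4 shown are those of the 5 whose gene length matched RefSeq to within 65 bp. Capitals mark AGGNGGC, with N any base, a loose form of letters from the core of the CTCF motif. It was searched on both strands with no other motif. A marked stretch need not match the motif itself. The builds differ, so each sequence is the promoter of the named gene and not the peak itself.
FRG1 (chr4:189940622-189940921, + strand): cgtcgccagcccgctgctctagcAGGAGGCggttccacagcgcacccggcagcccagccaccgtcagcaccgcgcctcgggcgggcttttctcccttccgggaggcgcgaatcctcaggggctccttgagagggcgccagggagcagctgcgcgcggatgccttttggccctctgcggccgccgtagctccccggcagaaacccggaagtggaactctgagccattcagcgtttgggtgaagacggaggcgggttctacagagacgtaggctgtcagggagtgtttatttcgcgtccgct
MADCAM1 (chr19:496236-496535, + strand): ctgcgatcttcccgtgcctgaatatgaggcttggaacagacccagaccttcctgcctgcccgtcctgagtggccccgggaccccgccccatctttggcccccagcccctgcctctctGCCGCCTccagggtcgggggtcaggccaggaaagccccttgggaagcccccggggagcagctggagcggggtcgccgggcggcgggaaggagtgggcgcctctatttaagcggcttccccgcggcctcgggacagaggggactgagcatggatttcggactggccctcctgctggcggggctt
ZNF692 (chr1:248859036-248859335, - strand): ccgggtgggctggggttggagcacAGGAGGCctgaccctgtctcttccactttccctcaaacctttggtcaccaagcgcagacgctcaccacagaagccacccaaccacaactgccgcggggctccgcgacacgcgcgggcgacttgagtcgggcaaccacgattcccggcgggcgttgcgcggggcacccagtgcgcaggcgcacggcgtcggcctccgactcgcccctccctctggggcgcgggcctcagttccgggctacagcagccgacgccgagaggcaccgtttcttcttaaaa
AXIN1 (chr16:352674-352973, - strand): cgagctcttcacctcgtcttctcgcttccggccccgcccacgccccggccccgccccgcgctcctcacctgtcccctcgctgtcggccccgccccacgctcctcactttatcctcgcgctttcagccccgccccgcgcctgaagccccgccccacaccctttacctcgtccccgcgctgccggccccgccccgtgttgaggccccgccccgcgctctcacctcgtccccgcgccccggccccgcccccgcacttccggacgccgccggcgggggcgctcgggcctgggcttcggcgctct

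The first 3 promoters each held 1 match, and that of AXIN1 held 0. The letters were present in 4 of all 11 promoters with a region at the start. Of all 34943 RefSeq promoters of this length, 35.8% held them. The promoters shown were chosen after their values were seen, so their share of matches is not an enrichment. A match is only a description of the sequence, and its absence says nothing of CTCF. The start of MADCAM1, an adhesion receptor that directs lymphocytes to the gut, lay at the edge of a region at chr19:495139-496521 (hg19, as all coordinates below). This region had a fold of 21.5 (D3), 19.8 (E4) and 12.4 (WT), at percentiles 99.3, 99.1 and 98.4. The region at FRG1, a gene next to the repeat array of facioscapulohumeral dystrophy at the 4q end, spanned chr4:190861305-190862473. Its folds of 18.1, 17.7 and 8.86 stood at percentiles 97.9, 98.3 and 90.1 in D3, E4 and WT. Both regions ranked in the top 10% of every list. The region at the zinc-finger gene ZNF692 stood lower, at percentiles 62.1, 48.8 and 72.9. The region at AXIN1, a scaffold of the complex that degrades beta-catenin in WNT signalling, stood at 62.2 and 57.9 in D3 and E4 and at 13.8 in WT.

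Peaks were denser near chromosome ends than in the rest of chromosomes 1 to 22 in all 3 lists. D3 had 26.5 peaks per Mb in the terminal 500 kb against 19.4 elsewhere, a ratio of 1.36. E4 had 18.9 against 13.2, a ratio of 1.43. WT had 19.3 against 13.1, a ratio of 1.48. The ratio was thus similar in lists of different length. Peaks covered 2.60% of the terminal windows in D3, 1.54% in E4 and 1.47% in WT, against 1.87%, 1.11% and 0.970% of the rest.

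Density did not rise steadily toward the telomere. From 19.2, 13.2 and 12.8 peaks per Mb beyond 10 Mb (D3, E4 and WT), it reached 34.1, 22.1 and 23.6 per Mb between 0.5 and 1 Mb from the end. In the outermost 50 kb it was 17.9, 16.4 and 14.4 per Mb. The unknown outermost bases of hg19 count in the length of this bin, so its density over mappable sequence is higher and was not computed. The highest values of the whole profile therefore lay just outside the 500 kb boundary in D3, and at 300 to 400 kb in E4 (22.6) and WT (23.8). The boundary itself is no edge in the data: between 400 and 500 kb there were 101, 69 and 77 peaks, and in the next stretch of this length 112, 65 and 72. The last D3 peak inside it lay 499.6 kb from the 12p end and the first outside 500.5 kb from the 11q end.

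**Figure D1:**
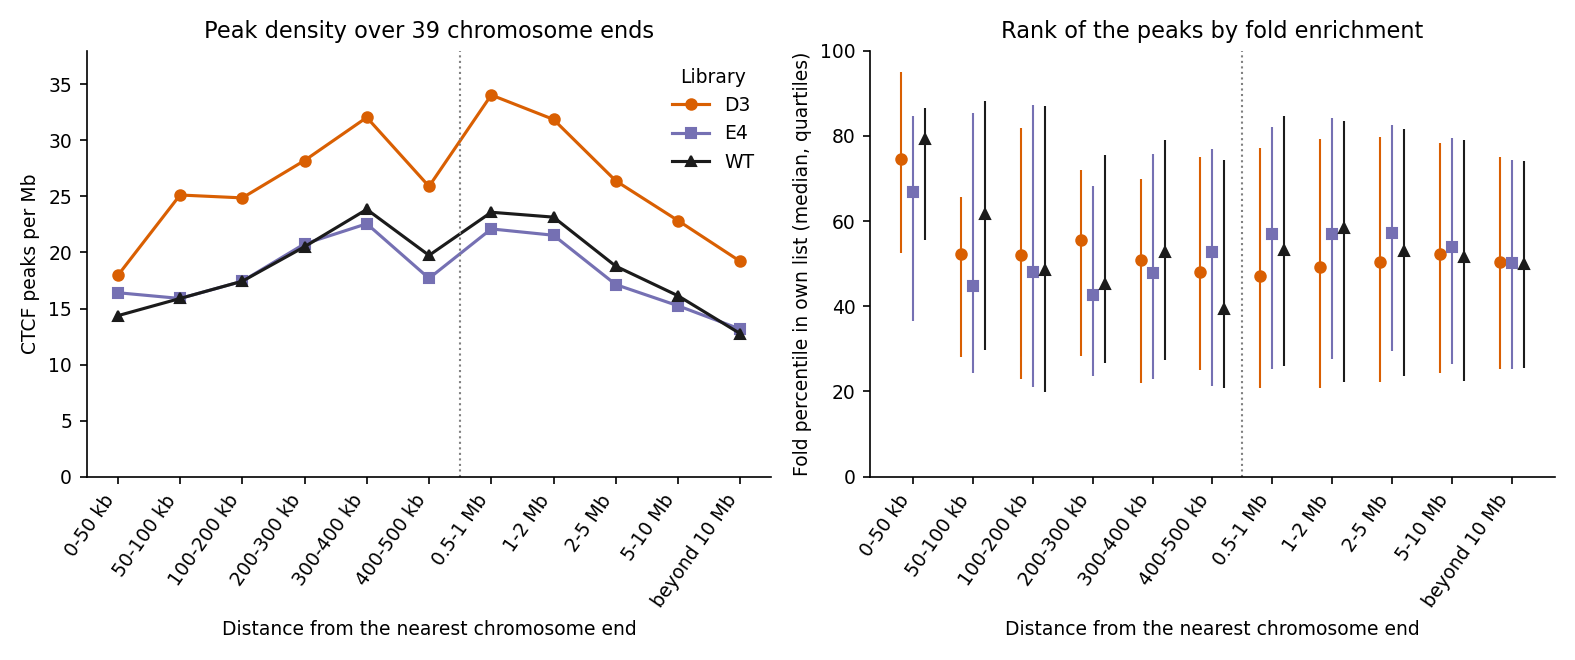
CTCF peaks per Mb (left) and fold percentile within the own list (right; points are medians, lines the quartiles) against distance from the nearest chromosome end, for 1 library each of D3, E4 and WT. The dotted line marks 500 kb. Density peaks between 300 kb and 2 Mb. Over lengths that include unknown bases, the outermost 50 kb has the lowest density of the terminal bins in D3 and WT. Its median percentiles are 74.6, 66.9 and 79.3.

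Median width and rank of terminal peaks lay near those of other peaks in the full lists. Median widths were 876, 699 and 637 bp in D3, E4 and WT, beside 882.5, 757 and 645 bp elsewhere. The median fold percentile was 52.7, 48.8 and 51.5, beside 50.4, 50.7 and 50.4 elsewhere. Among peaks whose -log10 q was at least 5, ranked anew, it was 47.9, 55.1 and 63.1, beside 50.7, 50.6 and 50.2, and the interval of the WT median (55.3 to 68.8) left out the value elsewhere. The spread of ranks was wider at the top. The top 10% of each whole list held 71 of the D3 members (13.7%), 56 of the E4 members (15.2%) and 59 of the WT members (15.6%), against 10.3%, 10.2% and 10.1% of other peaks. The lowest 20% of each list held 20.5%, 21.1% and 20.7% of members, close to their share elsewhere (20.1%, 19.7% and 19.97%).

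The region of highest fold in both clones lay at chr16:60287-61312, 60.3 kb from the 16p end. Its fold was 46.1 (D3), 28.9 (E4) and 17.1 (WT), which was the 99.87th percentile or above in each list. In WT a region at chr12:93264-94799, 93.3 kb from the 12p end, stood highest, with a fold of 19.6 against 30.6 in D3 and 16.4 in E4. A region at chr16:90146873-90149567 was among the 5 highest in all 3 lists (folds 28.1, 24.0 and 17.2). It lies 4.54 kb from PRDM7, a relative of the meiotic recombination factor PRDM9.

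Other leading regions differed more in rank between the lists. The region at chr7:30852-31753, 30.9 kb from the 7p end, had a fold of 14.6 (D3), 24.6 (E4) and 13.03 (WT), at percentiles 93.7, 99.8 and 98.9. One within TCF25, which encodes a subunit of the ribosome quality control complex, at chr16:89976254-89978358, had folds of 21.8, 20.7 and 8.39. Its percentile was 99.4 in both clones and 87.6 in WT. Within FAM157A at the 3q end, chr3:197893514-197895318 had folds of 29.6, 15.3 and 11.5, at percentiles 99.9, 96.3 and 97.5. Every one of these leading regions was called in all 3 lists.

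The widest terminal region spanned 3951 bp at chr16:90011811-90015761, overlapping DEF8. It stood at percentile 73.5 (D3), 95.4 (E4) and 96.3 (WT). Next in width were 3685 bp at chr11:189228-192912 and 3619 bp at chr12:76269-79887. The 3 widest regions were all called in every list.

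Within the outermost 50 kb, 17 ends held 36 regions. Of these, 27 (75%, exact 95% interval 57.8 to 87.9) were called in all 3 lists, against a background of 54.3% of all merged regions. In the other terminal bins the share ran from 46.2% (50 to 100 kb) to 57.8%. All intervals cover counting error only. The fold rank of these outermost peaks was also high: the median percentile was 74.6 over 35 D3 peaks, 66.9 over 32 E4 peaks and 79.3 over 28 WT peaks. Segments of this stretch recur at several ends, so the regions are not independent of each other, and the part of repeated sequence in these values was not tested.

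At 12 ends the outermost region lay within 20 kb of the end, and at 11 of them each of the 3 lists had a peak within that distance. These peaks need not belong to the same region. Several of these distances were close to each other: 10.4 kb at 21q, 10.6 kb at 10q, 10.8 kb at 19q, and 11.2 kb at 2p, 17p and 18p. These distances include any unknown outermost bases of hg19, to which no read can map. They are therefore no measure of spacing from the telomere, and the part of the unknown bases in their closeness was not tested. The region at 18p, chr18:11228-12605, had a fold of 18.997 (D3), 14.4 (E4) and 11.999 (WT), at percentiles 98.4, 95.01 and 98.1. At 2p, chr2:11218-12413 had a fold of 16.6 in D3 but 4.91 in E4 and 5.59 in WT, at percentiles 96.6, 30.1 and 56.2. Rank agreement between lists thus differed from end to end. The 21q region, chr21:48117719-48119493, stood at percentiles 84.1, 88.6 and 93.2.

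Neighbouring regions at 9p lay at the gene WASH1, a member of a family copied at many chromosome ends that encodes a regulator of actin on endosomes. The outer region, chr9:11466-12744, had folds of 12.8, 5.45 and 4.78, and the inner, chr9:14729-16257, had folds of 18.4, 14.4 and 6.09 in D3, E4 and WT. The inner region stood at percentile 98.0 in D3 and 95.02 in E4 and at 64.3 in WT. At 17p the outermost region, chr17:11217-11553, was called in WT alone, at a fold of 3.15 and percentile 2.289. The next region there, chr17:14009-14880, was called in all 3 lists.

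**Figure D2:**
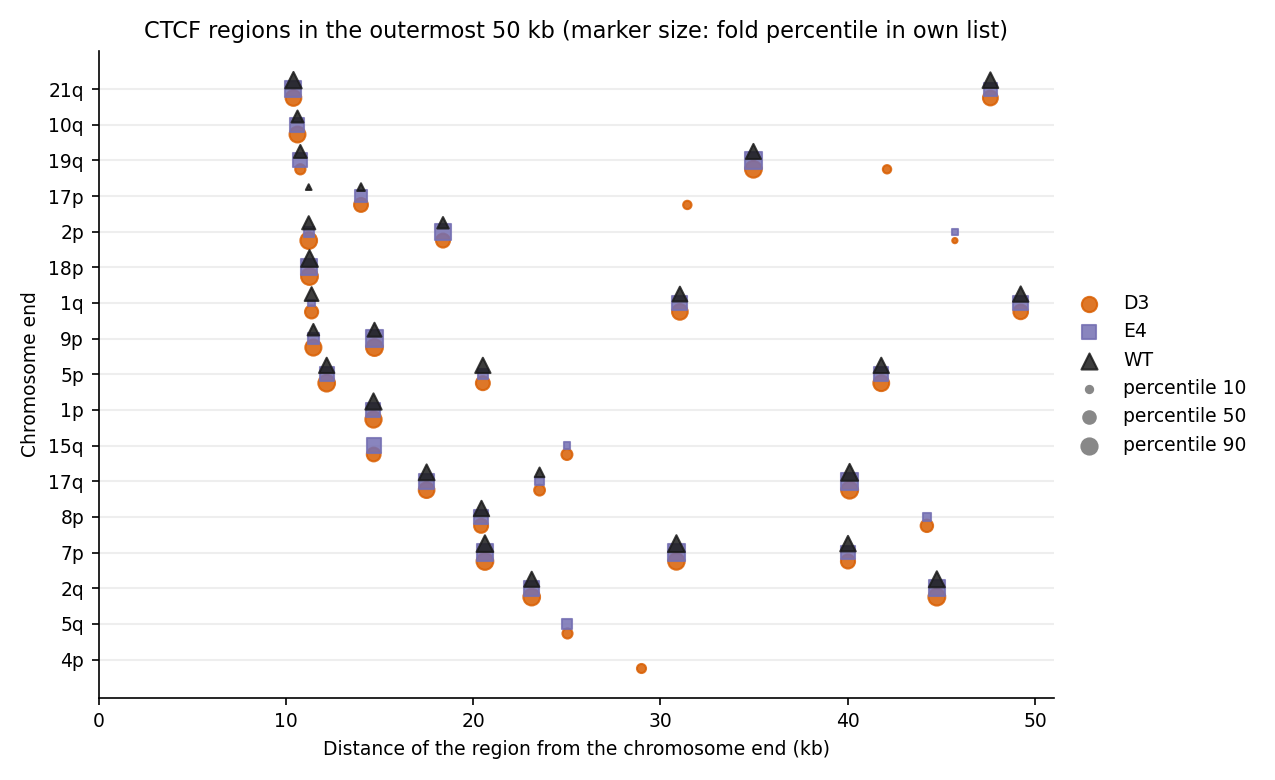
The 36 merged regions in the outermost 50 kb, with the distance from the chromosome end in kb on the x axis and the 17 ends with such a region as rows; marker size gives the fold percentile within the own list. At 21q the outermost region starts 10.4 kb from the end, and 27 of 36 carry all 3 markers.

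The position of the outermost peak was alike in the 3 lists at most ends. At 28 ends the outermost peaks of D3, E4 and WT lay within 20 kb of each other, and at 11 they did not. Over the 39 ends the median distance was 61.5 kb in D3, 63.9 kb in E4 and 76.6 kb in WT. Among the 11 ends, the WT peak lay over 20 kb further in than the outermost of the 3 at 10, the E4 peak at 5 and the D3 peak at 0. At 15q the outermost peak was 15.3 kb from the end in D3, 14.7 kb in E4 and 99.0 kb in WT. The 5q end (25.02, 25.01 and 203.7 kb), 6q (69.0, 69.2 and 275.5 kb) and 11q (60.4, 60.5 and 267.4 kb) likewise had WT furthest in. At 3p E4 lay furthest in, with 84.3 kb in D3, 395.7 kb in E4 and 84.6 kb in WT. The D3 list is the longest, and the part of list length in these distances was not tested.

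The number of peaks per end varied widely and in the same way in the 3 lists. It ran from 3 to 23 in D3 (median 12), from 2 to 19 in E4 (median 9) and from 2 to 21 in WT (median 9). In WT the most peaks were found at 17q with 21, 22q with 19, and 11p, 16q and 20q with 18 each, and the fewest at 3p, 8p and 12q with 2 each. The rank correlation of the counts across the 39 ends was 0.857 between D3 and WT, 0.881 between E4 and WT and 0.873 between the clones (Pearson 0.843, 0.895 and 0.857). These points share gene density, mappable length and the library, so the values are a description. Ends of long arms held more peaks than those of short arms: 21.5 against 16.6 per Mb in WT, 29.0 against 23.3 in D3 and 19.7 against 17.9 in E4 (22 and 17 ends).

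D3 had more peaks than WT at 36 ends, as many at 2 (17p and 20q) and fewer at 1 (8q). The D3 list is also the longest. When each list was limited to its strongest 38645 peaks by -log10 q, the length of the WT list, D3 had more peaks than WT at 12 ends, as many at 6 and fewer at 21. E4 had more than WT at 13 ends, as many at 8 and fewer at 18 in the full lists, and more at 12, as many at 9 and fewer at 18 at equal length.

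The 14q end, which holds the variable gene segments of the immunoglobulin heavy chain, had 22 D3, 7 E4 and 9 WT peaks. Of its 22 regions, 12 were called in D3 alone, 6 in all 3 lists, 3 in D3 and WT and 1 in both clones. Over all merged regions these classes held 26%, 54.3%, 6.69% and 8.95%. The 14q end was picked after its values were seen. The region of highest D3 fold, chr14:106876854-106877966, had a fold of 9.10 (D3), 4.34 (E4) and 4.85 (WT), at percentiles 72.5, 20.5 and 41.9. Among the D3-only regions, chr14:106947770-106948492 led with a fold of 6.86 (percentile 55.4). At equal list length D3 still held 16 peaks there, against 7 and 9. The 9p end, with 18, 10 and 6 peaks, came down to 10, 8 and 6 at equal length.

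**Figure D3:**
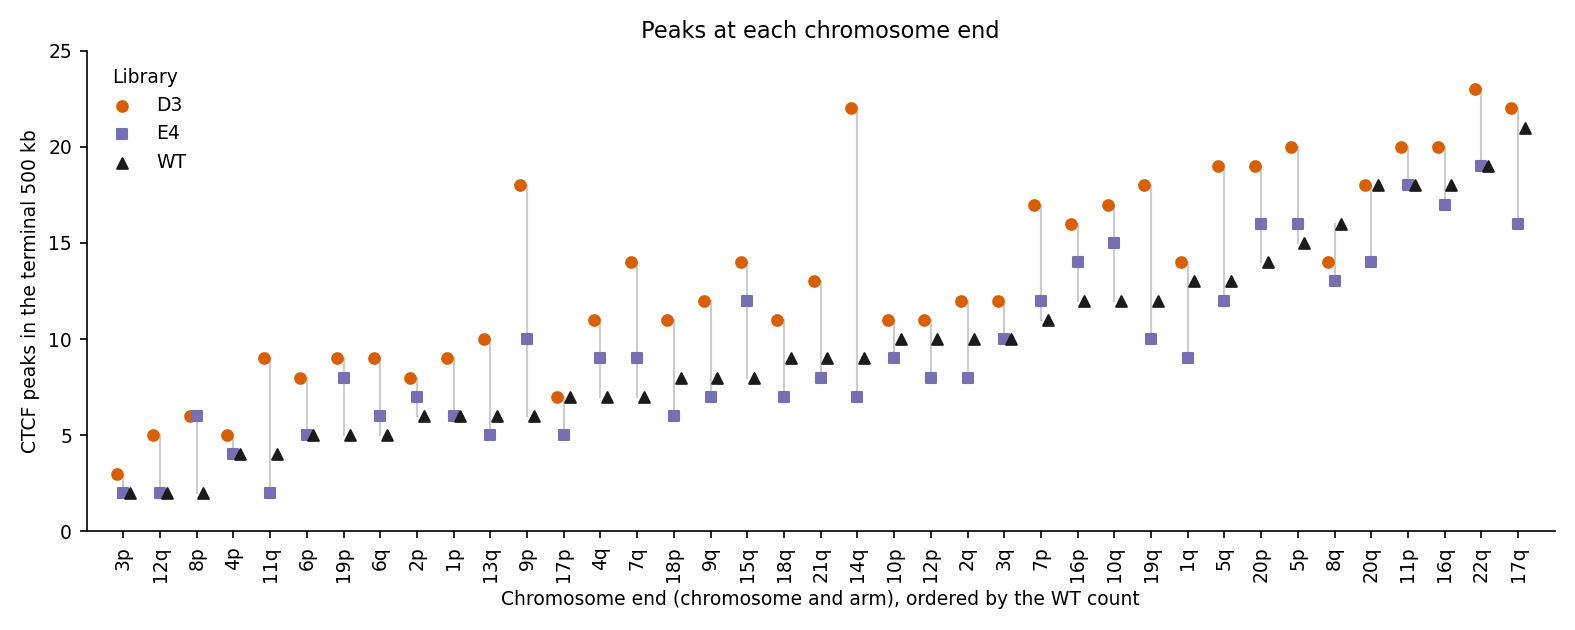
Number of CTCF peaks in the terminal 500 kb of each of the 39 chromosome ends with a peak, in order of the WT count, for D3, E4 and WT (1 library each); grey lines join the lists at an end. Counts of the 3 lists rise together from 3p, 12q and 8p to 22q and 17q, and D3 stands apart at 14q with 22 peaks against 7 and 9.

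In the full lists, presence of the regions was close to that over chromosomes 1 to 22. All 3 lists called 309 of 548 terminal regions (56.4%, 52.1 to 60.6), where the background over all merged regions was 54.3%. D3 alone called 118 (21.5%, 18.2 to 25.2; background 26%), both clones without WT 47 (8.58%, 6.37 to 11.2; background 8.95%), and D3 with WT 42 (7.66%, 5.58 to 10.2; background 6.69%). WT alone called 21 (3.83%, 2.39 to 5.80; background 2.42%), E4 alone 10 (1.82%, 0.878 to 3.33; background 1.44%) and E4 with WT 1 (0.182%, 0.00462 to 1.01; background 0.218%). The share of D3-only regions lay below the background and its interval did not reach it. For WT-only regions the lower bound lay just under the background.

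Regions called in 1 list were weak in that list. The 118 D3-only regions had a median fold percentile of 16.8, the 21 WT-only regions 3.22 and the 10 E4-only regions 7.41. Those called in all 3 lists had medians of 68.4 (D3), 58.7 (E4) and 62.5 (WT).

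**Figure D4:**
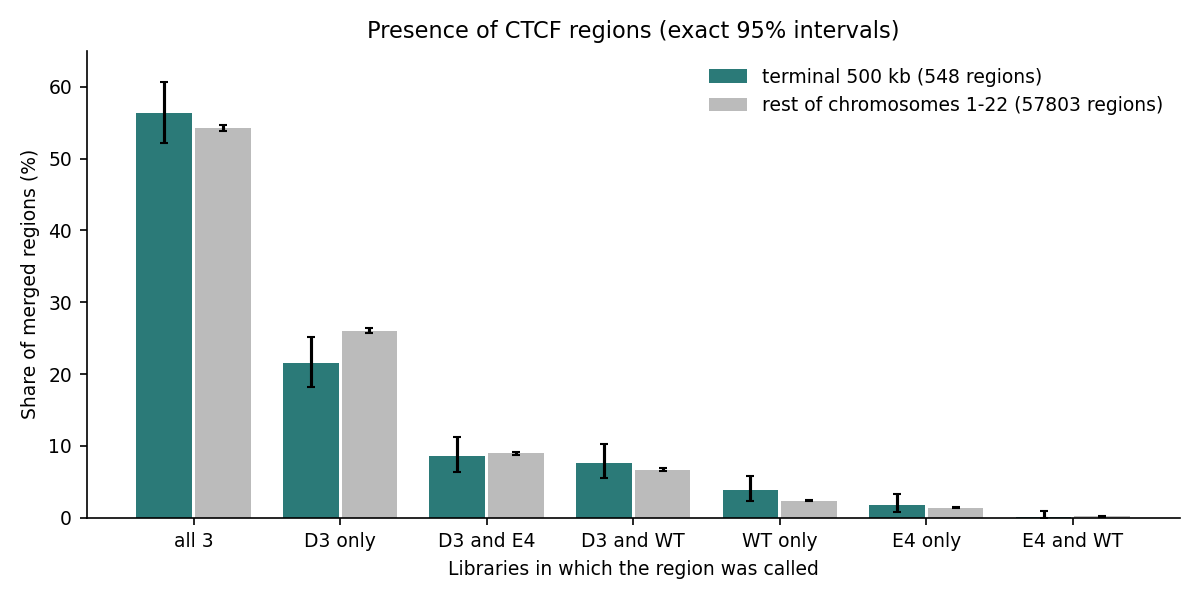
Share of merged CTCF regions called in each combination of the 3 lists, in percent, for 548 regions of the terminal 500 kb and 57803 other regions of chromosomes 1 to 22; error bars are exact 95% intervals for counting error. Terminal and other regions have like shares, with fewer D3-only regions at the ends (21.5% against 26.01%).

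Most WT peaks at chromosome ends were overlapped by a peak in the clones. D3 overlapped 355 of 377 (94.2%, 91.3 to 96.3), where the background over all WT peaks was 95.9%. E4 overlapped 312 (82.8%, 78.6 to 86.4), with a background of 85.6%. Neither clone had a peak at 21 (5.57%, 3.48 to 8.39), with a background of 3.74%. With the full lists and 1 bp of overlap, the interval of each share held its background. Both clones are set against the same WT library. The last share moved with the lists: at equal list length it was 11.4% (8.38 to 15.1) beside 8.56% of all WT peaks, and with a -log10 q of 5 or more 0 of 197 (up to 1.86%) beside 0.535%. With 50% of the WT peak to be covered it was 8.49% (5.88 to 11.8) beside 5.45%, which the interval left out. With that coverage the intervals of D3 (91.0%, 87.6 to 93.7, beside 94.0%) and E4 (77.2%, 72.6 to 81.3, beside 81.4%) also left out their backgrounds. At equal list length so did that of D3 (82.2%, 77.99 to 86.0, beside 86.7%), while that of E4 (82.8%, 78.6 to 86.4, beside 85.2%) held it.

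The 21 WT peaks without a clone peak were all weak, with a -log10 q between 1.04 and 3.37. In the lowest 20% of WT peaks by -log10 q, 19 of 76 terminal peaks lacked a clone peak (25%, 15.8 to 36.3), against 16.99% of such peaks elsewhere. Above the median WT -log10 q it was 0 of 191, which allows a share of up to 1.91%, and elsewhere 4 of 18860 (0.0212%). The strongest of the 21 lay within RBCK1, a subunit of the linear ubiquitin ligase complex, at chr20:400314-400579, with a fold of 3.94 at percentile 21.2. Next was chr5:180472366-180472633 within BTNL9, a butyrophilin-like gene, with a fold of 4.14 at percentile 25.7. No other of the 21 stood above percentile 9.25, that of chr10:180493-180940 at ZMYND11, a reader of modified histone H3. A further 18 lay below it, among them chr20:62680319-62680637 at the transcription factor gene SOX18 and chr17:80788795-80790042 over ZNF750, a regulator of epidermal differentiation.

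Of these 21 peaks, 10 lay at the ends of 8q (3), 16q (3) and 17q (4) and 0 at 10q. These 4 ends were singled out because an earlier account of these data had named them for missing WT peaks. There, 10 of 67 WT peaks (14.9%, 7.40 to 25.7) had no clone peak, against 11 of 310 (3.55%, 1.78 to 6.26) at all other ends. Since the ends were chosen on these libraries, the gap is a description.

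The 47 regions that both clones called without WT had median fold percentiles of 40.1 in D3 and 14.2 in E4. The strongest lay at chr15:102514728-102516706, 14.7 kb from the 15q end and 1979 bp wide. Its fold was 7.71 in D3 (percentile 62.5, -log10 q 15.1) and 8.15 in E4 (percentile 68.3, -log10 q 11.03), and WT had no peak. Ordered by the lower of the 2 clone -log10 q values, it ranked 7 of all 5225 regions of both clones without WT. A second region of this kind at the 15q end, chr15:102416695-102418283, had folds of 5.00 and 6.83 and ranked 257. The next, chr15:102504821-102506387, stood at percentiles 36.0 and 7.39. Of the 14 regions at 15q, an end picked after its values were seen, 4 were of this class, beside 8.95% of all merged regions. The WT list had 8 peaks at 15q against 14 in D3 and 12 in E4.

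Other regions of this class lay near genes of varied function. At the 20p end, chr20:118096-118938 had folds of 6.75 in D3 and 5.74 in E4, and lay 4.33 kb from DEFB126, a defensin gene expressed in the epididymis. Overlapping PDCD2, chr6:170884095-170884850 had folds of 5.41 and 4.69. The region at chr20:387647-388490, 0.219 kb from RBCK1, had folds of 5.501 and 4.89. Within AHRR, the repressor of the aryl hydrocarbon receptor, chr5:425804-426350 had folds of 4.76 and 4.58. All 4 stood at percentile 54.4 or lower in both clones.

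A single terminal region was called in E4 and WT and not in D3. It lay at chr18:78015241-78016184, 61.1 kb from the 18q end and 9.84 kb from PARD6G, which encodes a cell polarity protein. Its fold was 10.9 in E4 (percentile 85.5, -log10 q 18.5) and 8.36 in WT (percentile 87.4, -log10 q 11.5). D3, the longest list, had no peak within 9.04 kb. By the lower -log10 q it ranked 1 of the 127 regions of this class on chromosomes 1 to 22.

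Among regions called in all 3 lists, ranks were recomputed over these 31692 regions so that the lists have equal length. At the ends, 309 such regions stood a median of 1.69 percentile points higher in WT than in D3 (quartiles -9.16 to 19.8) and 2.228 points higher than in E4 (quartiles -8.94 to 14.8). Over all shared regions the medians were -0.05 and -0.32. WT ranked above D3 in 170 of 309 and above E4 in 170, while the background was 49.8% and 49.1% of all shared regions. The medians are small beside the quartiles. Without the ends of 8q, 10q, 16q and 17q, the 257 remaining regions had medians of 0.80 and 1.98 points. The 52 regions at those 4 ends had medians of 11.6 against D3 and 2.57 against E4.

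Ends differed in this measure. Over the 30 ends with at least 5 shared regions, the median of WT minus D3 ran from -12.8 points at 1p to 18.1 at 5p, with 18 ends above 0. WT minus E4 ran from -16.1 at 16p to 16.2 at 5p, with 15 ends above 0. At 5p, 15 shared regions stood higher in WT than in D3 in 11 cases and than in E4 in 13. At 16p the regions stood lower in WT, with medians of -7.07 and -16.1, and WT exceeded D3 at 3 and E4 at 1 of 12 regions. Both differences at an end use the same WT values.

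**Figure D5:**
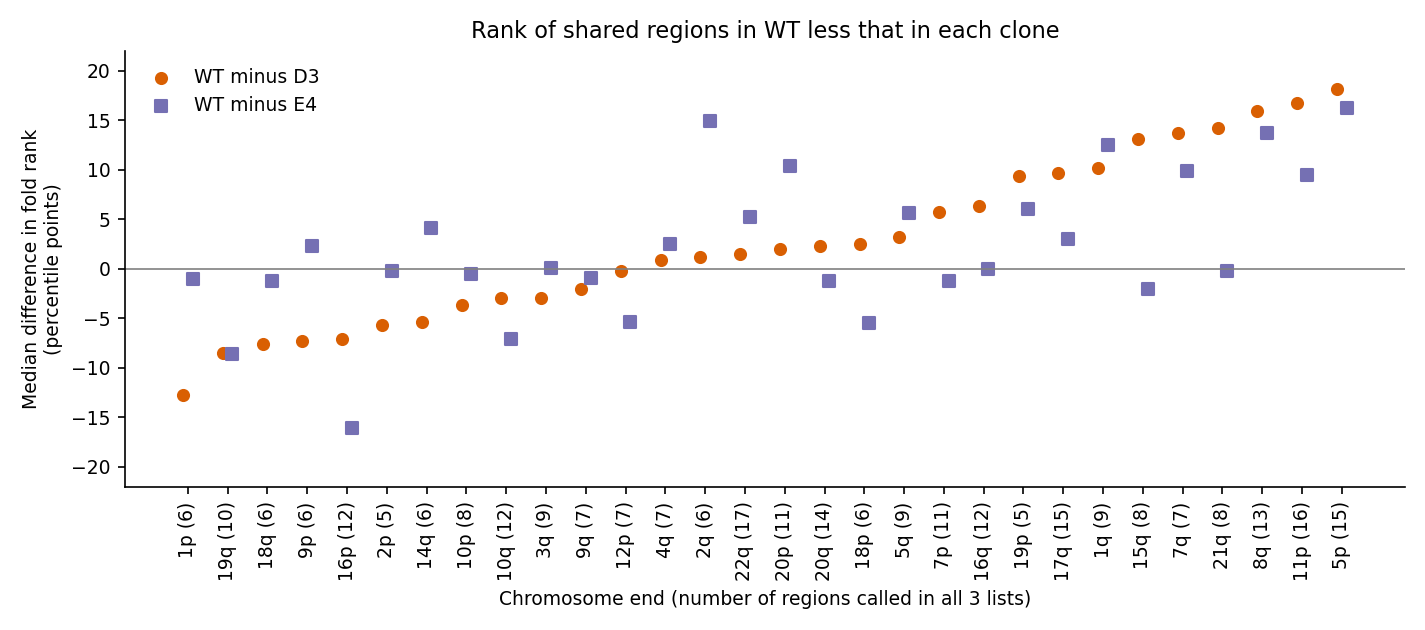
Median difference in fold rank, WT minus D3 and WT minus E4 in percentile points, over regions called in all 3 lists at each of the 30 chromosome ends with 5 or more such regions (number in brackets). Ends are ordered by WT minus D3, from -12.8 at 1p to 18.1 at 5p, and E4 ranges from -16.1 at 16p to 16.2 at 5p.

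The alpha-globin cluster lies near the 16p end, where CTCF sites upstream of the genes are known to bound the globin enhancers, which lie inside NPRL3. The 11 genes of this list had 6 D3, 5 E4 and 5 WT peaks within 10 kb, and all 5 WT peaks were overlapped by both clones (background over all WT peaks 85.3%). NPRL3, whose product restrains mTORC1, held 3 regions in each list. The first, chr16:146356-147702, had folds of 15.4, 16.01 and 10.3, at percentiles 95.1, 97.1 and 95.1 in D3, E4 and WT. The second, chr16:156787-157577, stood at 77.4, 54.6 and 53.0. The third, chr16:167415-168276, stood at 81.8 and 66.8 in the clones and at 3.80 in WT. So 1 NPRL3 region ranked alike in the 3 lists and another stood far lower in WT.

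Downstream, a region over HBQ1, the theta-globin gene, at chr16:230346-232189, had folds of 10.3, 12.9 and 5.72. It stood at percentiles 79.2, 92.1 and 58.6, and lay within 10 kb of HBA1, HBA2 and LUC7L as well. On the other side, chr16:115233-116296 within RHBDF1 stood at 85.5, 83.7 and 70.7. No peak of any list lay within 10 kb of POLR3K, MPG, HBZ (zeta-globin) or HBM (mu-globin). LUC7L had 1 further peak, in D3 alone.

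Further in on 16p, AXIN1 had 3 peaks within 10 kb in each list. Beside the region at its start, chr16:411753-413262 stood at percentiles 76.6, 63.6 and 59.9, and chr16:368557-368993 at 5.68, 9.30 and 5.84. All 3 WT peaks there were overlapped by both clones.

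Over all 93 genes of the 8 lists, taken with 10 kb on either side and only within the terminal 500 kb, there were 159 D3, 111 E4 and 123 WT peaks. Both clones overlapped 99 of the 123 WT peaks (80.5%, 72.4 to 87.1; background 85.3%), D3 alone 16 and neither 8. At 20 genes no list had a peak. Neighbouring genes share peaks, and each peak counts once per list.

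Signalling and chromatin regulators (18 genes) had 27 WT peaks, of which both clones overlapped 20 (74.1%, 53.7 to 88.9). For this list and for each of those that follow the interval held the background of 85.3%, so none of these counts sets a list apart. ZMYND11 had 4 peaks in each list. IRF4, a transcription factor of lymphocytes, had 1 peak in D3 (percentile 81.1) and 1 in WT (39.3) and none in E4. RASA3, a RAS GTPase-activating protein, had 3 peaks in D3 and none in the other lists. TBP, the TATA-binding protein, had 1 peak in each clone (percentiles 40.5 and 26.6) and none in WT. TRIB3, a stress-induced pseudokinase, had 2 in D3, 1 in E4 and none in WT. DUSP22 and TRIM28 each had 1 peak, in D3, at percentiles 21.9 and 5.26. The peaks at RASA3, TBP, TRIB3, DUSP22 and TRIM28, all missing from WT, stood at percentile 50.8 or lower in their lists.

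The interferon-induced IFITM genes at 11p, whose products block virus entry, were listed with their neighbours NLRP6, B4GALNT4 and PKP3. These 7 genes together had 9 WT peaks, of which both clones overlapped 8 (88.9%, 51.8 to 99.7, background 85.3%). The remaining WT peak lay at PKP3 and was overlapped by D3 alone. IFITM1 and IFITM2 each had 4 peaks in D3 and 3 in E4 and WT within 10 kb, and their best rank was 67.3 (D3), 55.7 (E4) and 74.3 (WT). B4GALNT4 had 3 peaks in every list. NLRP6 had none.

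Genes of families copied between chromosome ends held few peaks: 7, 6 and 4 over 7 genes, and both clones overlapped 4 of 4 WT peaks (lower bound 39.8%; background 85.3%). RABL2B, a small GTPase gene at the 22q end, had 1 peak at percentiles 98.1, 84.9 and 93.9. CBWD1 and FAM110C had peaks in both clones and none in WT, at percentiles of 28.7 or less. FOXD4 and TUBB8 had none. At zinc-finger genes (15), both clones overlapped 8 of 9 WT peaks (88.9%, 51.8 to 99.7; background 85.3%). Among them MZF1 stood at 97.2, 94.5 and 76.9, ZNF596 had 1 peak in D3, 2 in E4 and none in WT, and ZNF324 had 2 weak peaks in D3 alone.

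Among 18 genes of core cell machinery, both clones overlapped 23 of 31 WT peaks (74.2%, 55.4 to 88.1; background 85.3%). D3 alone overlapped 4 and neither clone 4. TBCD, a tubulin-folding cofactor at the 17q end, had the most D3 and WT peaks of any listed gene, with 12 (D3), 9 (E4) and 12 (WT). Both clones overlapped 9 of its 12 WT peaks. The Fanconi anaemia gene FANCA had 2, 1 and 2 peaks. UPF3A, a factor of nonsense-mediated decay, had 1 peak in D3 and 1 in WT and none in E4. CHMP2A had 1 weak peak, the D3 peak counted at its neighbour TRIM28. THOC1, RNH1, SIRT3 and UBE2M had none.

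At neural genes (9), both clones overlapped 17 of 22 WT peaks (77.3%, 54.6 to 92.2; background 85.3%). CACNA1B, a calcium channel gene at the 9q end, had 8 D3, 3 E4 and 4 WT peaks, and VIPR2, a receptor for vasoactive intestinal peptide at 7q, had 8, 4 and 4. At equal list length both fell to 2 peaks in D3. MYT1 had 2 peaks in D3, none in E4 and 1 in WT. TUBB3, a neuronal tubulin at 16q, had 3, 1 and 4, at best percentiles of 73.5, 67.5 and 97.6. OPRL1, the nociceptin receptor, had 3 peaks in each list, at best percentiles of 92.8, 98.9 and 97.1.

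At gut, liver and transport genes (8), both clones overlapped 17 of 20 WT peaks (85%, 62.1 to 96.8; background 85.3%). AHRR had 10, 9 and 8 peaks, and both clones overlapped all 8 WT peaks. SLC27A5, the bile acyl-CoA synthetase of the liver, had 4, 3 and 4 peaks at best percentiles of 98.4, 96.7 and 95.5. The ethanol-metabolising cytochrome gene CYP2E1 had 1 peak in each list, at 82.6, 91.3 and 83.5. SLC9A3, the sodium-proton exchanger of the intestinal brush border, had 1 peak, in D3 (percentile 23.8). PDCD1 had 1 peak in D3 (28.2) and 1 in WT (6.25) and none in E4.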

How the data were processed

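CTCF chromatin immunoprecipitation libraries of HCT-116 (WT and clones D3 and E4, 1 each) were analysed; the 3 without antibody were not used here. Per the submitters' processing notes, hg19, MACS2 2.2.7.1, bedtools 2.29.2, Picard 2.23.1 and CASAVA 1.8.2 were used, with no role stated. Aligner, peak settings and control use are not given in the sources used here. For each library the authors deposited 1 broad peak list, called per sample. Its fold enrichment is a ratio computed by the authors. The -log10 p and -log10 q values are also as deposited by the authors. The score column that the authors deposited was not used.

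Members and distances were computed with Python 3.11.15, pandas 2.3.3, numpy 2.4.6 and scipy 1.17.1. Lists shared a peak at 1 bp of overlap, and overlapping peaks were merged. Depth is unknown, and Clopper-Pearson 95% intervals cover counting error only. No test was run, since each population has 1 library. The code was checked on simulated data. Gene positions come from general knowledge of hg19, without exons or introns. All 110 genes lay on the same chromosome in RefSeq (GRCh38.p14), 91 had a length within 10%, order matched at 25 of 25 ends, and 2 were found under an older symbol. The members and gene lists were chosen with earlier results of these data known.

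Named sites were drawn from the 5 peaks of highest fold per list and the 3 widest merged regions. The strongest regions of WT alone and of both clones without WT were added. So were peaks nearest to an end, the ends with most and fewest peaks, and all alpha-globin genes. Listed genes were named where they differed between lists or had most WT peaks. The E4 and WT region, the 14q, 9p and 15q sites and the promoters were chosen after their values were seen. Alternatives were windows of 250 kb and 1 Mb, a -log10 q of 5 or more, equal list length, 50% coverage, a distance of 1 kb, ranking by -log10 q, and leaving out the ends of 8q, 10q, 16q and 17q.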

Additional observations from a re-analysis of the deposited data

Results flagged for a closer look

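At 2 chromosome ends 1 clone had more and the other fewer peaks than WT, both in the full lists and at equal list length, with a gap that was not tested. At the 14q end the counts were 22 (D3), 7 (E4) and 9 (WT), a gap of 15 between the clones, and at equal length the counts were 16, 7 and 9. At the 11q end they were 9, 2 and 4, a gap of 7, and at equal length the counts were 5, 2 and 4. In the full lists 15 of 39 ends showed such an order, and 6 at equal length.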

How the results depend on the processing

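Of 98 alternative values, 30 moved by more than their error or 1.5 times the count, 68 did not, and 0 were labelled reversed. That label ignored whether medians or shares changed sides against the rest. Under a -log10 q limit of 5, the D3 median percentile fell below the rest (47.9 beside 50.7, from 52.7 beside 50.4). E4 rose above it (55.1 beside 50.6, from 48.8 beside 50.7), and WT stayed above. At equal list length the share of regions in all 3 lists fell below the rest (63.8% beside 65.9%, from 56.4% beside 54.3%). The D3, E4 and region intervals held the values of the rest. Windows of 250 kb held 230, 169 and 165 peaks (D3, E4, WT), 25 regions of both clones without WT and 138 of all 3 lists, and windows of 1 Mb held 1181, 800 and 837 peaks, 86 and 685 regions. These counts follow the window length, and their shares of all regions in the window were not computed. At a -log10 q of at least 5, E4 had 229 and WT 197 peaks, and median widths were 1027, 847 and 780 bp. The median fold percentile was 47.9 in D3 and 63.1 in WT. D3 overlapped 99.0% and E4 92.9% of WT peaks (99.2% and 91.3% over all WT peaks), and neither 0% (up to 1.86%, beside 0.535%). With this limit 180 regions (49.3%, beside 47.2% of all) were in all 3 lists and 43 (11.8%, beside 17.2% of all) in both clones without WT. At equal list length the D3 width was 1033 bp, D3 overlapped 82.2% (77.99 to 86.0) and neither clone 11.4% of WT peaks, beside 86.7% and 8.56% over all WT peaks, and 27 regions (6.03%, beside 5.78% of all) were in both clones without WT. With 50% coverage D3 overlapped 91.0%, E4 77.2% and neither 8.49% of WT peaks (94.0%, 81.4% and 5.45% over all WT peaks). For merged regions, each list had to cover 50% of the region. A region counted as without WT can thus still hold a WT peak. Counted so, 105 regions (19.2%, beside 19.2% of all) were in both clones without WT and 171 (31.2%, beside 31.3% of all) in all 3 lists. Why these values moved was not tested. The density ratio between ends and the rest ran from 1.21 to 1.65 over the alternatives. No paired analysis was possible because each population has 1 CTCF library and no test was run. There is no replicate to leave out. Depth is unknown, so a missing peak is not shown to be missing binding, and repeated sequence at the ends and unknown bases in hg19 limit what could be mapped.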
